A study of Mus musculus with 3 samples.

Results

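Integrins are the cell's receptors for extracellular matrix, and laminins are the matrix proteins of the basement membrane that many of them bind. The genes described here are mouse integrin alpha subunits, integrin beta subunits and laminin alpha, beta or gamma chains, chosen by symbol. The symbols taken were Itga or Itgb followed by a number and Lama, Lamb or Lamc followed by a digit. Itgae, Itgal, Itgam, Itgav, Itgax and Itga2b were added, and any other integrin symbol was left out. Genes were found on the array by matching each probe's RefSeq accession to its symbol. Of 36 such genes, 34 had a probe (45 probes in all), out of 20142 named genes on the array: 15 alpha subunits, 8 beta subunits and 11 laminin chains. Itga10 and Itgae matched no probe and were not analysed here. The cells were 3T3-L1, a mouse line of fat cell precursors that mature into lipid-laden adipocytes once differentiation is induced, collected 2, 8 and 20 days after induction. The study examined the effect of fat cell enlargement (hypertrophy) on transcript levels. Day 2 is the earliest time sampled, with differentiation already under way, day 8 follows it, and day 20 is the long culture. All 3 groups were the same line with no other genotype or treatment in the labels, and the agents of induction are not given in the sources used here.

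Every group was 1 array of total RNA. Without replicates no test across days was possible, and the differences compare single arrays. Each level is the log2 of the spot's processed intensity minus the 75th percentile of its array, so that 0 stands for that percentile. A difference is the later day's level minus the earlier day's, and was measured only where the probe was well above background, by the scanner software's mark, on both arrays. Its error is a technical SD, from probes printed 10 times on an array, and holds no spread between cultures. The number of arrays limits the precision of every value. A gene with several probes takes the brightest. The arrays had 12489, 12836 and 12574 genes well above background on days 2, 8 and 20, and 75th percentiles of 736, 697 and 1029 intensity units. In bulk RNA, fewer cells of a type and less RNA per cell cannot be told apart. All 8 adipocyte markers examined were well above background on each day. Of them, 4 were at least 2-fold higher on day 8 than on day 2 and 0 lower (all genes: 14.2% and 12.4%). On day 20 against day 8, 0 were higher and 0 lower, with a median of -0.51 (all genes: 3.45% and 1.83%). Adipoq, which encodes the hormone adiponectin, had levels of 4.91, 8.77 and 8.03 on days 2, 8 and 20, while the fatty acid carrier Fabp4 had 8.25, 8.22 and 7.49.

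An integrin is a pair of 1 alpha and 1 beta subunit, and the pair decides what it binds: Itgb1 joins most alpha subunits that bind collagen, laminin or fibronectin, Itgb3 and Itgb5 join Itgav, and Itgb2 joins the alpha subunits of leukocytes. A laminin is a trimer of 1 alpha, 1 beta and 1 gamma chain. Adipocytes are wrapped in a basement membrane that contains laminins with the Lama4 chain, and an exchange of the fibronectin receptor subunit Itga5 for the laminin receptor subunit Itga6 has been described in differentiating preadipocytes of this line.

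Itga11 and 2 laminin beta chains, Lamb3 and Lamb2, were at least 3.23-fold higher on day 8 than on day 2, while Lamb1, the third beta chain, stayed within 0.31 log2 units over the 3 days. The starts of these 4 genes are shown because they set Itga11 and the beta chains that were higher beside a beta chain that moved little. Each is the RefSeq window of 300 bases, from 250 before to 50 after an annotated start, on the plus strand of GRCm38.p6, with every CG pair in capitals. The array itself was designed on an earlier build, and no coordinate of a probe is used.
Itga11 (chr9:62677605-62677904): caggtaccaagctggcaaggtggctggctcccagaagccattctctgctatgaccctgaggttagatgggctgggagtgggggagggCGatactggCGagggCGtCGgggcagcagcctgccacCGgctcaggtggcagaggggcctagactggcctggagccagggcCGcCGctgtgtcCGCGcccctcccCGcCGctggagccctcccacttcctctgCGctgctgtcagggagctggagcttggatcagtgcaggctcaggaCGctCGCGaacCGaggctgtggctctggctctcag
Lamb3 (chr1:193301993-193302292): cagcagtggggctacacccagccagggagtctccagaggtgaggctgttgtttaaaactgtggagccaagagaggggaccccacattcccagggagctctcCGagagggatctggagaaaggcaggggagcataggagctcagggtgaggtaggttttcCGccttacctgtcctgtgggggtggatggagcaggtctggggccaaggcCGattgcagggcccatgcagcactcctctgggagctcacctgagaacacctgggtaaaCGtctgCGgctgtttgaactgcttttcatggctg
Lamb2 (chr9:108479612-108479911): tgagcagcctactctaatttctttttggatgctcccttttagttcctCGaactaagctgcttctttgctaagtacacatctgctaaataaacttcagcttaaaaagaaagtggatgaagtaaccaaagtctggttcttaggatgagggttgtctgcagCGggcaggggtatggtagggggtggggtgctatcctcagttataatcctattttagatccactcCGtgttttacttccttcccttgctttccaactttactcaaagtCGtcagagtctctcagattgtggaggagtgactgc
Lamb1 (chr12:31265043-31265342): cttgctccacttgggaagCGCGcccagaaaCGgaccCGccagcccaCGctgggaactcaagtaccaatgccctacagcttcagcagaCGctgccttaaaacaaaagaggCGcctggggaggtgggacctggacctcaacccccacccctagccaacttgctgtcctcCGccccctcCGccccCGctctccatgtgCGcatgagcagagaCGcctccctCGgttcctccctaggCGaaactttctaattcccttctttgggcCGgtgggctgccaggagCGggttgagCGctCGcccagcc

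The Itga11 window holds 16 CG pairs and the Lamb1 window 18, against 5 in this Lamb3 window, 2 at the other annotated start of Lamb3 and 4 in the Lamb2 window. A window was listed for 22 of the 34 members. Over these, taking the window richest in CG pairs for each gene, the median was 12.5 CG pairs (1 to 27), beside a median of 8 over 27025 genes. Members well above background on at least 1 day had a median of 14.5 (14 genes) and those never above it had 11 (8 genes). Some short motifs were searched as letters on both strands, none of them contained in another. The GC box, GGGCGG, stood in 12 of the 25 member windows (48%), beside 35.7% of all 32851 windows. The AP-1 motif, TGACTCA, stood in 2 member windows (8%, beside 5.2% of all), those of Itga9 and Itgax. The TEAD motif, GGAATG, likewise stood in 2 (8%, beside 14.7%), the windows of Itgb1 and Lamb3. Found in 0 member windows were the TATA box, TATAAA, which 13.6% of all windows hold, and the PPAR core motif, AGGTCA, which 16.3% hold. Also in 0 were the C/EBP motif, TTGCNNAA, held by 10.8% of all, and the E-box, CACGTG, held by 7.15%. Among the windows printed, Lamb1 has GC box letters at bases 167 and 176 and Lamb3 has TEAD letters at base 84, counted from the first base printed, while Itga11 and Lamb2 have none of these motifs.

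Of the 34 members, 24 (70.6%) were well above background on at least 1 day, beside 66.8% of all genes, and 21 were so on all 3 days. The 10 that never were are the collagen receptor subunit Itga2, Itga8, whose pair recognises RGD, Itga4, whose pairs bind Vcam1, Itga9, the leukocyte subunit Itgax, the beta subunits Itgb6, Itgb7 and Itgb8, and the laminin chains Lama1 and Lamc3. Their levels lay between -8.34 and -5.79 on every array, where the lowest level marked well above background was -5.85, -5.89 and -6.06 on days 2, 8 and 20.

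**Figure D1:**
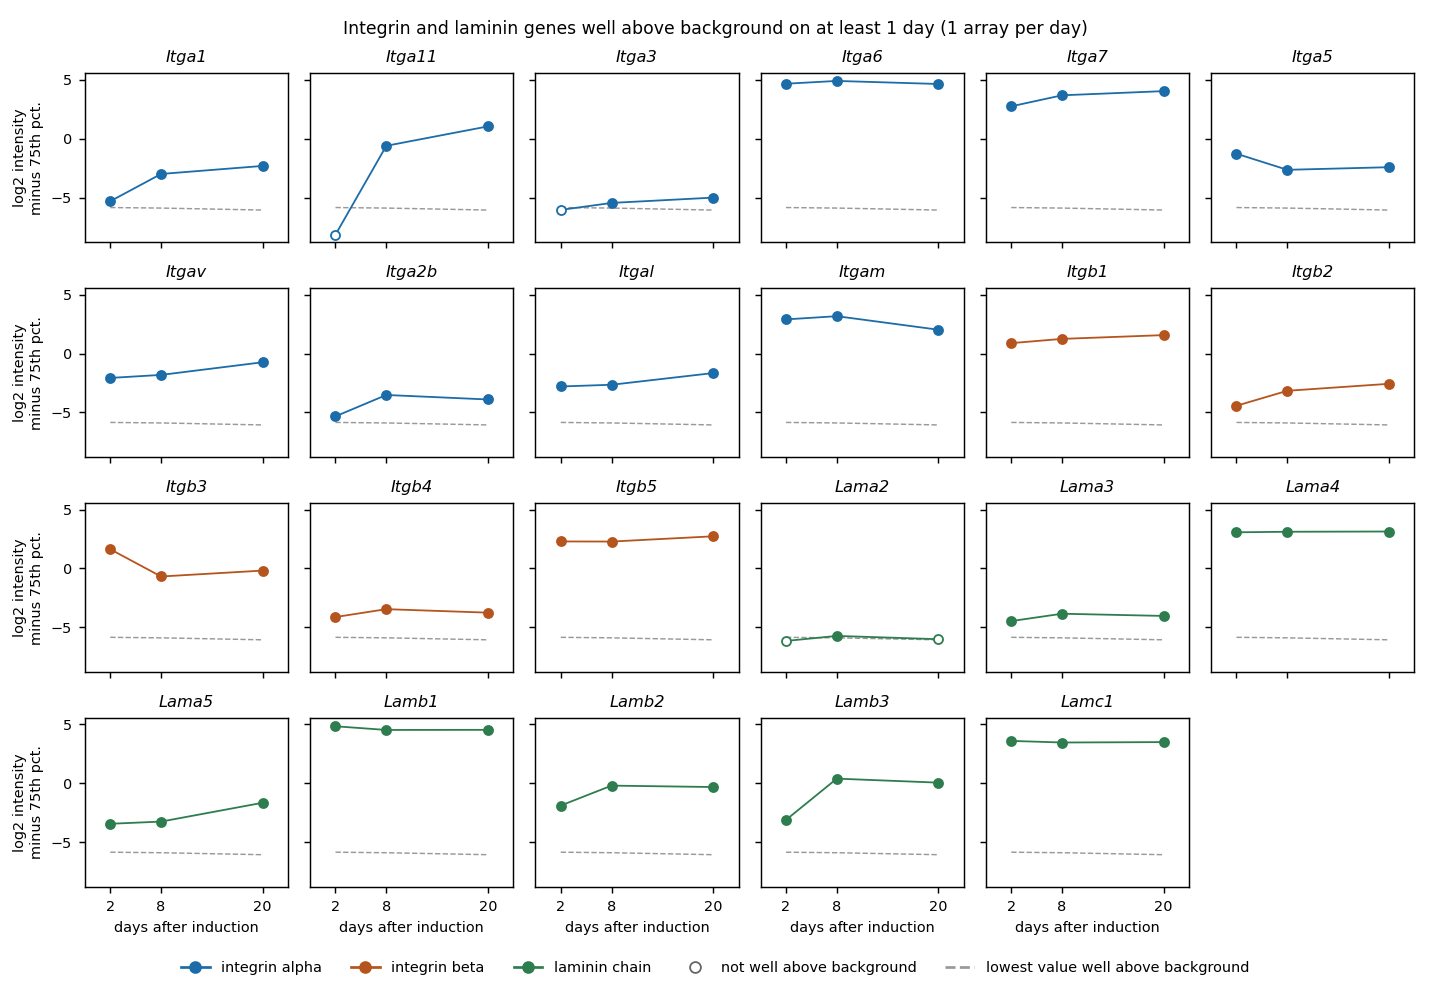
Level of 23 integrin and laminin genes well above background on at least 1 day (y axis: log2 processed intensity minus the array's 75th percentile; x axis: days after induction, 1 array per day). Open points were not well above background and the dashed line is the lowest level that was. Itga11 climbs past that line after day 2, Itgb3 drops by day 8, and Lama4, Lamb1 and Lamc1 are nearly level.

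On day 8 against day 2, 5 of 21 measured members were at least 2-fold higher (23.8%, beside 14.2% of 12044 measured genes) and 2 were at least 2-fold lower (9.52%, beside 12.4%). Itga11 passed 2-fold as a bound, 1 of 3 members above background on only 1 of the days (all such genes: 25.5%). The higher ones were Lamb3, Itga1, Itga2b, Lamb2 and Itgb2, and the lower ones Itgb3 and Itga5. The median of the 21 was 0.26, and that of all measured genes -0.04. The remaining 14 were less than 2-fold apart.

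On day 20 against day 8, 3 of 23 measured members were at least 2-fold higher (13.0%, beside 3.45% of 12321 measured genes), namely Itga11, Lama5 and Itgav, and 1, Itgam, was at least 2-fold lower (4.35%, beside 1.83%). The median of the 23 was 0.22, beside -0.07 for all measured genes. Just outside the threshold lay Itgal at 0.99, and just inside it Itgav at 1.07. These counts depend on the scaling between arrays. Scaled on spike-in probes, which moved the median of all genes to 0.61, 10 of the 23 members passed 2-fold upward and 0 downward. On that scale the counts over all genes were 2051 upward and 21 downward, of 12321 measured. Every value here is relative to most other genes of its array.

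On day 20 against day 2, which shares an array with each of the comparisons above, 9 of 21 measured members were at least 2-fold higher (42.9%, beside 15.5% of 11888 measured genes) and 3 were at least 2-fold lower (14.3%, beside 16.9%). The higher ones were Itga1, Itga7, Itgav, Itga2b, Itgal, Itgb2, Lama5, Lamb2 and Lamb3, and the lower ones included Itga5 and Itgb3. With normexp, a model-based background correction, Itga2b, Itgal, Itgb2, Lama5 and Itga5 were under 2-fold, and Itga5 was so with cyclic loess and on the spike-in scale (-0.46) as well. Itga11 again passed 2-fold as a bound, 1 of 2 such members (all such genes: 29.5%). Of the 21 members above background on all 3 days, 7 were at least 2-fold apart between days 2 and 8 but not between days 8 and 20, 3 only between days 8 and 20, and 0 in both steps. For 8 of them the whole range over the 3 days was under 2-fold.

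**Figure D2:**
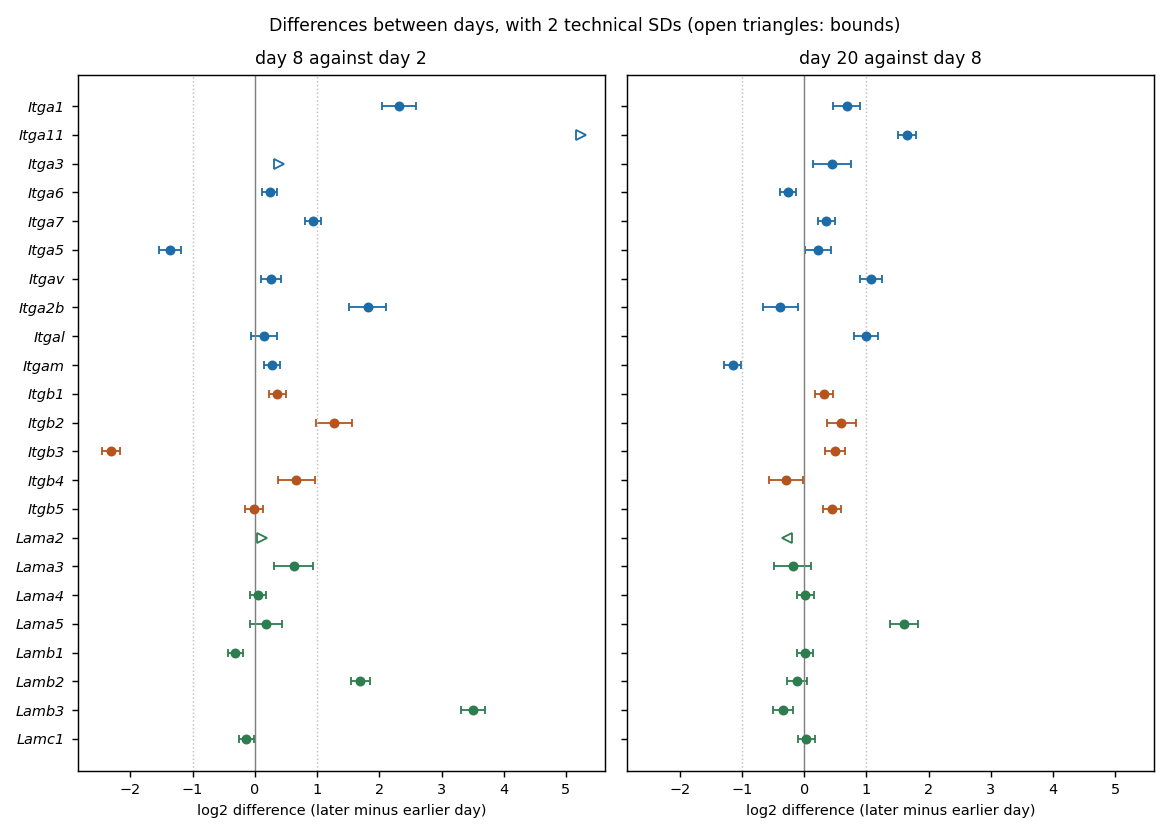
Log2 difference of 23 members (later minus earlier day) for day 8 against day 2 on the left and day 20 against day 8 on the right, both on the same axis. Bars are 2 technical SDs, open triangles are bounds, and dotted lines mark 2-fold. In the first step Itga11, Lamb3 and Itga1 lie farthest to the right and Itgb3 farthest to the left, and in the second Itga11 and Lama5 stand to the right.

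Among the collagen-binding alpha subunits, Itga11, a receptor for fibrillar collagen best known from fibroblasts, had levels of -8.15, -0.61 and 1.04 on days 2, 8 and 20. It was not well above background on day 2, where its intensity was 2.59 units, against 458 on day 8 and 2118 on day 20. Counted from the lowest signal above background, the day 8 level was at least 37.8-fold that of day 2, and the day 20 level exceeded it by at least 119-fold. Between day 20 and day 8 the difference was 1.65 (technical SD 0.072), or 3.14-fold, and it stayed between 1.59 and 2.33 in all 9 other settings. The fibroblast and preadipocyte markers examined beside it, 7 of 7 above background on each day, had summed levels of 172, 84.4 and 180 times the array's 75th percentile on days 2, 8 and 20. S100a4 and Dlk1 made up most of each sum. Of the 7, 2 were at least 2-fold higher on day 8 than on day 2, Lum (2.73) and Pdgfrb (2.55). S100a4 (-2.05) was the 1 lower, and the median difference was 0.11 (all genes: 14.2% and 12.4%). On day 20 against day 8, 2 were higher and 0 lower, with a median of 0.81 (all genes: 3.45% and 1.83%). Against day 2, day 20 had 5 higher and 1 lower, with a median of 1.13 (all genes: 15.5% and 16.9%). The part of these markers in the Itga11 values was not tested.

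Itga1, another collagen receptor subunit, had levels of -5.31, -3.00 and -2.32, the first just above background. The difference was 2.32 (SD 0.14) on day 8 against day 2 and 0.68 on day 20 against day 8. Its other probe did not show this: it had -5.28, -5.25 and -5.41, a difference of 0.03 between days 8 and 2. The average over both probes passed 2-fold on day 8 only through the probe used, whose difference was 0.88 with normexp background correction. Between days 20 and 2 the probes differed in sign, 3.00 for the probe used and -0.14 for the other.

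The laminin-binding alpha subunits changed little or upward. Itga6, which pairs with Itgb1 or Itgb4, had 4.66, 4.90 and 4.64 on days 2, 8 and 20, a whole range of 0.26. It was already at that level on day 2. Itga7, the laminin receptor subunit prominent in muscle, had 2.74, 3.68 and 4.03. Each step was under 2-fold (0.94 and 0.35), but the first passed it with quantile normalization and with cyclic loess, and the second with spike-in scaling (1.03). Day 20 was 2.45-fold higher than day 2. Itga3, a receptor subunit for laminins of epithelia, was dim: -6.05 and not above background on day 2, then -5.46 and -5.01. Its difference of 0.45 between days 20 and 8 turned to -0.14 with normexp.

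Alpha subunits whose pairs recognise the RGD peptide of fibronectin and vitronectin moved in different directions. Itga5, the fibronectin receptor subunit, had levels of -1.28, -2.65 and -2.42 on days 2, 8 and 20. It was 2.58-fold lower on day 8 than on day 2 (-1.37, SD 0.089; -0.93 with normexp) and 2.21-fold lower on day 20 than on day 2. Itgav, the partner of Itgb3 and Itgb5, had -2.07, -1.81 and -0.74, with day 20 the highest. Day 20 was 2.11-fold higher than day 8 (1.07, SD 0.086; 0.91 with normexp), and its other probe gave 0.96.

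Itga2b, the alpha subunit of the platelet fibrinogen receptor, had -5.33, -3.52 and -3.90 on days 2, 8 and 20. All of these are dim, between 18.3 and 68.9 intensity units, and the difference of 1.81 (SD 0.151) between days 8 and 2 was 0.67 with normexp. Of 5 megakaryocyte and platelet markers, Gp1ba, Gp9 and Gp6 were not above background on any day. Gp1bb had -4.73, -3.88 and -3.04, and Pf4 had -8.03, not above background, then -4.79 and -4.51, which puts the day 8 level at least 2.08-fold above that of day 2. The summed level of these 5 markers was 0.065, 0.131 and 0.182 times the 75th percentile on days 2, 8 and 20, and its part in the Itga2b values was not tested.

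By the probe used, the leukocyte integrin subunits Itgal, Itgam and Itgb2 were above background on each day, and Itgax on none. Itgal, which forms a leukocyte adhesion receptor with Itgb2, had -2.80, -2.65 and -1.66 on days 2, 8 and 20, and its other probe -3.07, -3.15 and -2.03. On day 20 both probes were higher than on day 8, by 0.99 and 1.12. Itgb2 itself had -4.43, -3.16 and -2.57 and was 2.41-fold higher on day 8 than on day 2 (1.27, SD 0.143; 0.65 with normexp).

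Itgam, the myeloid integrin subunit, was read by 3 probes, whose levels disagreed: only the probe used was bright. The probe used had 2.90, 3.17 and 2.02 on days 2, 8 and 20, another -5.44, -5.23 and -6.11, the last not above background, and the remaining one -6.25, -5.76 and -6.56, above background on day 8 alone. Day 20 was 2.22-fold lower than day 8 by the bright probe (-1.15, SD 0.069) and at least 1.77-fold and 1.23-fold lower by the others. With cyclic loess, median scaling and spike-in scaling the bright probe's difference was under 2-fold, down to -0.47 with spike-ins.

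Of 13 leukocyte and macrophage markers, 8 were not above background on any day, among them Ptprc, the antigen common to leukocytes, Adgre1, Lyz2, Tyrobp, Spi1 and Laptm5. Csf1r, Cd3e, Fcer1g and Cd14 were above background on each day and Coro1a on days 8 and 20. The markers' summed level was 1.27, 2.01 and 1.95 times the 75th percentile on days 2, 8 and 20. Of the 4 measured on days 8 and 2, Cd14 alone was at least 2-fold higher, with -3.07, -0.09 and 0.22 on the 3 days. The part of these markers in the values of Itgal, Itgam and Itgb2 was not tested.

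**Figure D3:**
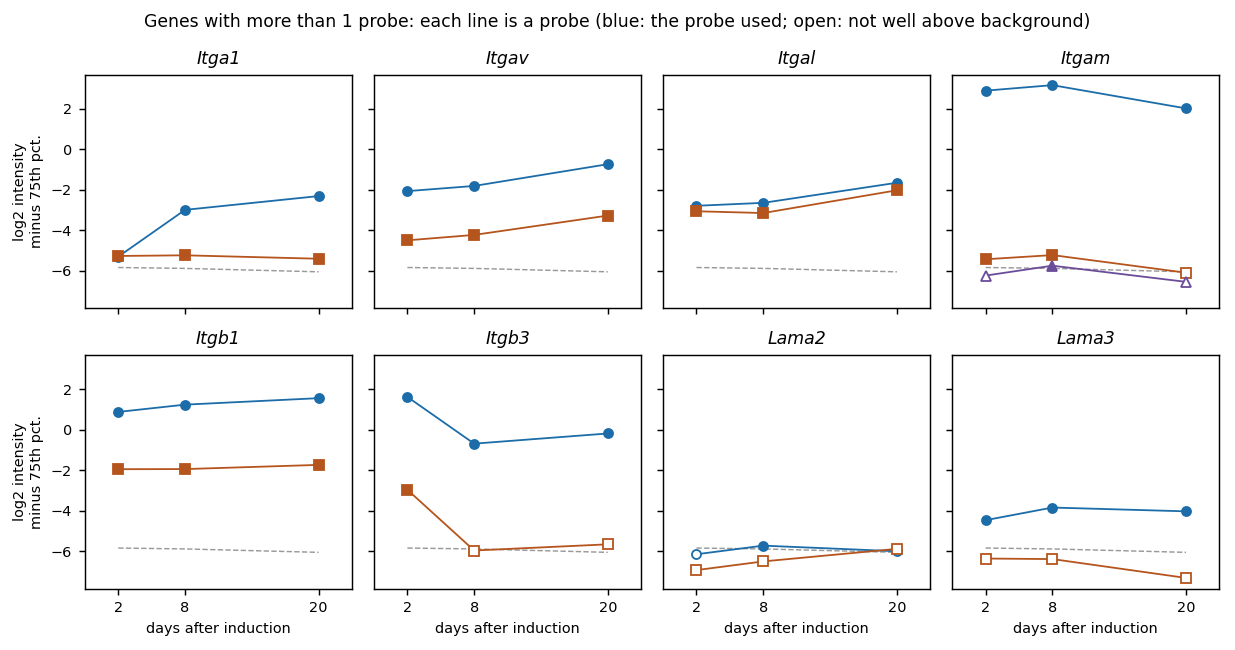
Levels of each probe of the 8 members with more than 1 probe and at least 1 day above background (y axis: log2 processed intensity minus the array's 75th percentile; x axis: days after induction). Blue lines are the probes used for the gene and open points were not well above background. Probes of Itgav and Itgal run in parallel, the second Itga1 probe is flat, and 1 of the 3 Itgam probes was above background on all days.

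Itgb1 and Itgb5 were under 2-fold in both steps, except Itgb5 in the second step with spike-in scaling (1.12). Itgb1, the most widely pairing beta subunit, had levels of 0.88, 1.24 and 1.56 on days 2, 8 and 20, and its other probe -1.95, -1.94 and -1.74. Its steps were 0.36 and 0.32. Itgb5, a vitronectin receptor subunit, had 2.29, 2.28 and 2.73, with a difference of -0.01 in the first step and 0.45 in the second.

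Itgb3, another beta partner of Itgav, was the member with the largest measured decrease on day 8 against day 2. Its level was 1.63, -0.69 and -0.18 on days 2, 8 and 20. Day 8 was 4.97-fold lower than day 2 (-2.31, SD 0.075), with a range of -2.44 to -2.19 in the other settings, and day 20 was still 3.51-fold lower than day 2. Its second probe had -2.97 on day 2 and was not above background afterwards, which makes day 8 at least 7.61-fold and day 20 at least 6.5-fold lower. Itgb4, which joins Itga6 in the hemidesmosomes of epithelia, had -4.13, -3.46 and -3.76, under 2-fold in both steps.

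Lama4, Lamb1 and Lamc1 were close to constant. Lama4, the alpha chain of adipose and vascular basement membranes, had 3.06, 3.11 and 3.13 on days 2, 8 and 20, a range of 0.068. Lamb1 had 4.84, 4.53 and 4.54 and Lamc1, the gamma chain of most laminins, 3.60, 3.46 and 3.50. None of the 3 moved by more than 0.31 between any days, though with spike-in scaling day 20 was 0.69 to 0.71 higher than day 8 for each, beside a median of 0.61 for all genes. Of 6 endothelial markers, examined because vessels share this laminin, Cdh5 and Tek were above background on no day and Emcn on day 8 alone. Pecam1, Kdr and Egfl7 were above it on each day. Kdr had 2.03, 1.93 and 1.29 on days 2, 8 and 20, and Egfl7 had -0.22, 1.42 and 0.77. The summed level was 5.05, 6.61 and 4.2 times the 75th percentile, most of it from Kdr. The part of these markers in the laminin values was not tested.

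The largest measured difference among the members was that of Lamb3, a beta chain found with Lama3 in the laminin that anchors epithelia. Its levels were -3.11, 0.40 and 0.06 on days 2, 8 and 20. Day 8 was 11.4-fold higher than day 2 (3.50, SD 0.097), and the difference lay between 2.83 and 3.59 in the other settings. Lama3 had -4.47, -3.85 and -4.03, a difference of 0.62 between days 8 and 2, and its other probe was not above background on any day.

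Of 6 epithelial markers, Cdh1, Krt8 and Krt5 were not above background on any day. Krt18 had -3.83, 1.81 and 1.07 on days 2, 8 and 20, Krt14 had -1.49, -4.99 and -5.91 with the last not above background, and Epcam was above background on day 8 alone. Their summed level was 0.473, 3.59 and 2.15 times the 75th percentile, which on days 8 and 20 was almost all Krt18, while Krt14 fell. The part of these markers in the Lamb3 values was not tested.

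Lamb2, the beta chain of synaptic and kidney laminins, had -1.89, -0.20 and -0.32 on days 2, 8 and 20. Day 8 was 3.23-fold higher than day 2 (1.69, SD 0.077; 1.38 to 1.78 in the other settings), and the later step was -0.12 (0.56 with spike-in scaling). Lama5, a widely expressed alpha chain, moved only in the later step, with -3.44, -3.25 and -1.65. Day 20 was 3.03-fold higher than day 8 (1.60, SD 0.112), and 0.83 with normexp. Lama2, the alpha chain of muscle laminin, was at the edge of detection, with -6.16, -5.73 and -6.01 and only day 8 above background.

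The median laminin difference was 0.12 on day 8 against day 2, over 8 measured chains, and -0.05 on day 20 against day 8. It turned to -0.01 with median scaling and -0.04 with the stricter filter in the first step, and to between 0.06 and 0.62 with quantile, cyclic loess, median or spike-in scaling (0.01 with the stricter filter) in the second. Integrin medians were 0.27 over 13 measured subunits and 0.45 over 15.

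**Figure D4:**
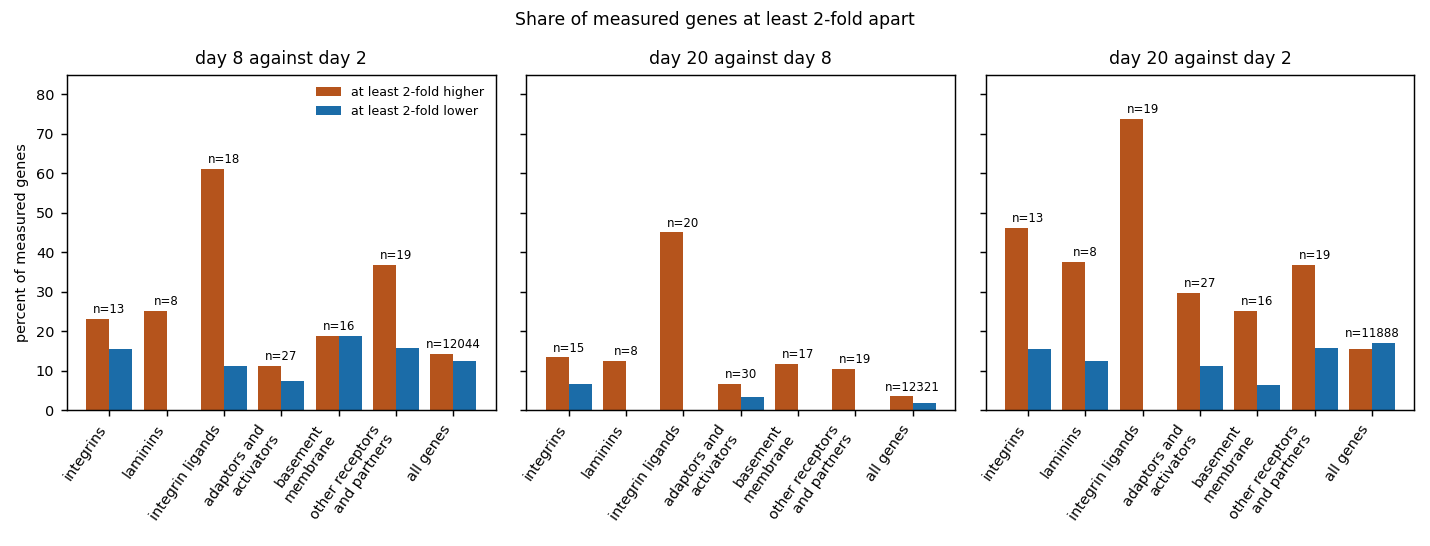
Percent of measured genes at least 2-fold higher (orange) and at least 2-fold lower (blue) for integrins, laminins, 4 lists of partner genes and all genes, in each comparison of days (y axis from 0, n: measured genes). Integrin ligands have the tallest orange bar in every comparison, and the share of all genes is smaller on day 20 against day 8 than in the other comparisons.

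Genes that work with integrins were read from 4 further lists. Of 30 integrin ligands, 18 were measured on day 8 against day 2, and 11 of them passed 2-fold upward and 2 downward (all genes: 14.2% and 12.4%), with a median of 1.42. Thbs1, a matrix glycoprotein, had levels of -4.57, 0.04 and 2.23 on days 2, 8 and 20. Spp1, or osteopontin, a ligand of Itgav pairs, had -3.54, -0.12 and 2.22. Thbs2, the microfibril protein Fbn1 and the adhesion molecule Vcam1 differed by 2.73, 2.56 and 2.56, while Postn, which binds Itgav pairs, was at -1.97 and Tgfb3, a growth factor held latent until released by integrins, at -1.37. Later, 9 of 20 ligands measured on days 20 and 8 were at least 2-fold higher and 0 lower (all genes: 3.45% and 1.83%), led by the matricellular protein Ccn2 at 2.76 (0.98 with normexp), Spp1 at 2.34, Thbs1 at 2.19, Fbn1 at 1.95 and Ccn1 at 1.64. Between days 20 and 2 the counts were 14 and 0 of 19 (all genes: 15.5% and 16.9%).

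Among the adaptors and activators inside the cell, 3 of 27 measured on days 8 and 2 passed 2-fold upward (11.1%, beside 14.2% of all genes) and 2 downward (7.41%, beside 12.4%), with a median of 0.28. Fermt2, the kindlin that activates integrins outside blood cells, had -0.16, 1.63 and 1.90 on days 2, 8 and 20. Lims2, a partner of integrin-linked kinase, differed by 1.32, and the tensin Tns3 was 2.14-fold higher. Lower were the docking protein Nedd9 at -2.82 and Itgb1bp1, which binds the Itgb1 tail, at -1.05, the last under 2-fold with quantile, cyclic loess or averaged probes. Tns3 was under 2-fold with median scaling or averaged probes. In the later step Tns3 (1.17, 0.70 with averaged probes) and the endocytic adaptor Dab2 (1.16, 0.63 with normexp) were higher and the parvin Parvg (-1.28, -0.60 with spike-in scaling) was lower, of 30 measured (all genes: 3.45% higher and 1.83% lower). Against day 2, day 20 had 8 higher and 3 lower of 27 (all genes: 15.5% and 16.9%).

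Of the basement membrane partners of laminins, 3 of 16 measured were at least 2-fold higher and 3 lower on day 8 against day 2 (18.8% each, beside 14.2% and 12.4% of all genes), with a median of -0.22. Smoc1, a calcium-binding matrix protein, and Col4a5, a collagen IV chain, differed by 1.91 and 1.59, Col18a1, the precursor of endostatin, was 2.14-fold higher, and Fbln1 and Fbln2, both fibulins, and the collagen IV chain Col4a1 differed by -1.70, -1.12 and -1.15. Both fibulins were higher again on day 20 against day 8, Fbln1 by 2.35 and Fbln2 by 1.14, the 2 of 17 that passed 2-fold (11.8%, beside 3.45% of all genes). With normexp the Fbln1 differences were -0.48 and 0.69, under 2-fold in both steps. The first-step differences of Col4a1 and Fbln2 were under 2-fold with quantile or cyclic loess, and that of Col18a1 with median scaling or averaged probes.

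Among other laminin receptors and integrin partners, 7 of 19 measured were at least 2-fold higher (36.8%, beside 14.2% of all genes) and 3 lower (15.8%, beside 12.4%) on day 8 against day 2, with a median of 0.50. Dag1, or dystroglycan, the main laminin receptor that is no integrin, had 0.56, 2.09 and 2.22 on days 2, 8 and 20. The tetraspanins were split: Cd82 and Cd151, a partner of laminin-binding integrins, differed by 2.77 and 1.45, and Cd9 by -1.47. Cd81 and Cd63, also tetraspanins, were under 2-fold (0.77 and 0.08). The sarcoglycan Sgce and the caveolin Cav1 differed by 2.34 and 1.94, and Plaur, the urokinase receptor, and the syndecan Sdc1 by -2.27 and -1.01, the last under 2-fold with quantile, cyclic loess or normexp. In the later step Itgbl1, an integrin beta-like secreted protein, differed by 2.74 and Sgca by 1.37 (0.14 with normexp), the 2 of 19 higher, with 0 lower (all genes: 3.45% and 1.83%).

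**Figure D5:**
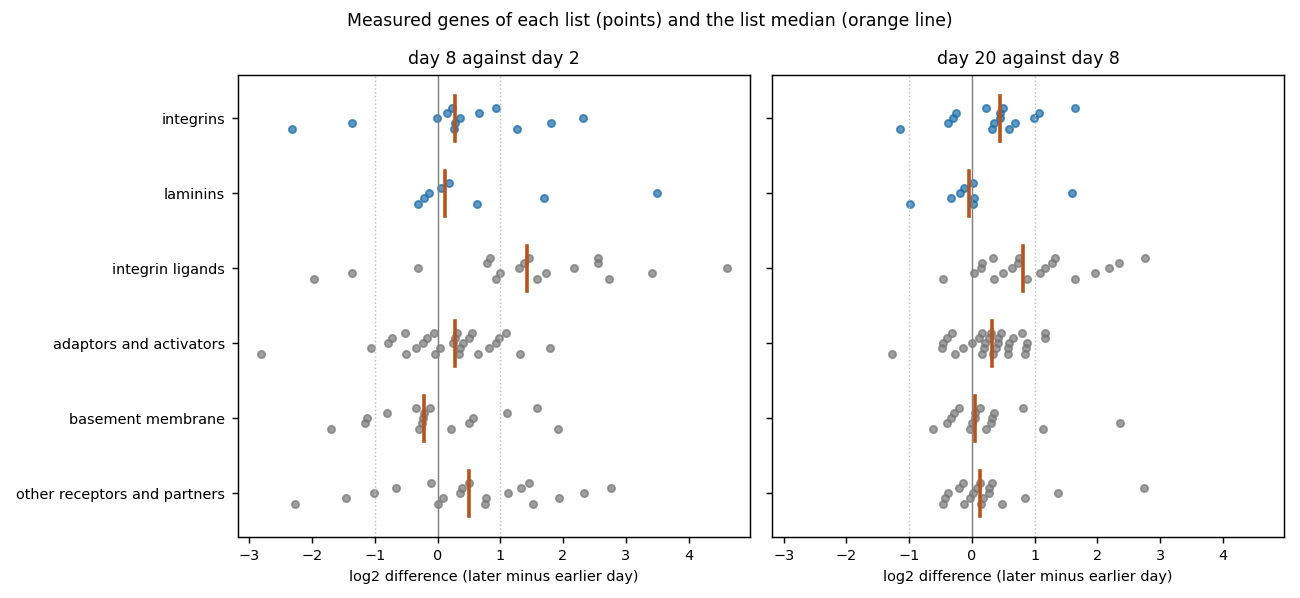
Log2 difference (later minus earlier day) of every measured gene of the integrins, the laminins and 4 partner lists, with each list's median as an orange line, for day 8 against day 2 and day 20 against day 8 on the same axis. Ligands have medians of 1.42 and 0.82, and the laminins 0.12 and -0.05.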

How the data were processed

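Total RNA from 3 cultures of 3T3-L1 cells, 1 per day, was labelled with cyanine-3 per the labels' protocols and hybridised to 1-colour arrays on 1 slide, per the file headers. The deposited intensity is the brightness of each spot after background correction by Agilent Feature Extraction (version 10.7.1.1 per the submitters' notes), with no scaling between arrays. Marks for spots well above background, saturated or outlying stand in the same deposited files. In the series table, the authors' log2 values differ from log2 intensity by a single constant for each array (within 0.01 for 100% of probes).

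Levels here are log2 intensity minus the 75th percentile of the array, without control spots and without the 102 to 120 outlier spots per array; 0 spots were saturated. Repeated spots were averaged. Of 39429 probes, 26579 were named by RefSeq accession through a gene table of GRCm38.p6, and the brightest probe, averaged over days, stood for its gene. A bound sets the bright level against the dim level or the lowest level well above background, whichever is higher, so small bounds are not strict minimums. The technical SD came from 219 to 227 probes printed 10 times, in 8 brightness bins. The calculation was tested on simulated data. Python 3.11.15, R 4.3.3 and limma 3.58.1 were used.

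Named were all members at least 2-fold apart in any comparison, 9 further members whatever their values, and up to 5 genes per list, comparison and direction. Itga3, Itgb4, Lama3, Cd63, Cd81, the markers and genes with bounds were added for completeness. One member is counted but not reported by name here. Members and lists were chosen with earlier results of these data known. Alternatives were normexp (offset 50, on the median spot signal in place of the mean, chosen after seeing the data), quantile, cyclic loess, median and spike-in scaling, the series table, no filter or a stricter filter on dim probes, and the mean of a gene's probes.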

Additional observations from a re-analysis of the deposited data

How the results depend on the processing

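Over 9 alternative settings, 0 of 200 values of members at least 2-fold apart changed sign. That outcome was largely fixed in advance, because the values were picked for their size and some settings leave a value unchanged. Of 54 counts of such members, 41 stayed within 1.5 times the count reported. On day 8 against day 2, members at least 2-fold higher numbered 2 of 21 in place of 5 with normexp (all genes: 1292 of 12044). With the stricter filter on dim probes they numbered 2 of 15 (all genes: 1207 of 9757). Itga1, Itga2b and Itgb2 were missing in both settings, and the members' share was then near that of all genes. Those lower numbered 1 in place of 2 with normexp (all genes: 1165 of 12044). On day 20 against day 8, those higher numbered 10 of 23 in place of 3 with spike-in scaling and 1 with normexp. Those lower, 1 in the main values, numbered 2 with quantile normalization (all genes: 171 of 12321). They numbered 0 with cyclic loess, 0 with median scaling, 0 with spike-in scaling and 3 of 34 with no filter on dim probes. On day 20 against day 2, those higher numbered 5 of 21 in place of 9 with normexp (all genes: 1447 of 11888). With the stricter filter they numbered 5 of 15 (all genes: 1325 of 9625). Those lower numbered 1 of 21 in place of 3 with spike-in scaling (all genes: 704 of 11888). The stricter filter counts fewer genes; the other causes were not tested. Over all genes, normexp left 205 and 104 genes at least 2-fold higher and lower on day 20 against day 8 in place of 425 and 226, no filter gave 670 and 1353, and spike-in scaling 2051 and 21. Of the genes past 2-fold there, 65.3% were higher in the main values, 75.6% with quantile normalization, 83.0% with cyclic loess, 83.9% with median scaling, 99.0% with spike-in scaling and 33.1% with no filter. On day 20 against day 2 the share was 47.8% in the main values, 65.0% after cyclic loess and 84.3% on the spike-in scale. Normexp on the mean spot signal, as first planned, was not run. No paired analysis was possible because each day has 1 array, and no replicate could be left out. Signal limits Itga1, Itga2b, Itga3, Itga11, Itgb2, Itgb4, Lama2 and Lama3, whose day 2 intensities lay at or below 42.1 units.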

Other observations

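Some members are neighbours in the genome, with 0 other protein-coding genes between them in the RefSeq gene table: Itga1 and Itga2, and Itgam and Itgax. Itga1, by both of its probes, and Itgam, by only the brightest of its 3 probes, were above background on all days. Itga2 and Itgax were so on none.

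A few partner genes were above background on only some days. Dab2, an endocytic adaptor that binds integrin tails, was not above background on day 2, with bounds of at least 7.25-fold higher for day 8 and 16.2-fold higher for day 20. Edil3, an Itgav ligand, was at least 5.54-fold lower on day 8 than on day 2, and by day 20 exceeded day 8 by at least 6.78-fold. Vtn, which encodes vitronectin, was at least 5.47-fold higher on day 20 than on day 8, and Col15a1, a basement membrane collagen, at least 3.24-fold higher on day 8 than on day 2.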
